A study of Rattus norvegicus with 24 samples.

Results

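The genes described here are 7 subunit genes of the GABA-A receptor, Gabra2, Gabra3, Gabra4, Gabra5, Gabrb1, Gabrb2 and Gabrg1, taken by their symbols from a table of 17420 genes. Each symbol matched 1 entry, and all 7 were above the lowest value of the table in every one of 24 rat pups. The pups were Sprague-Dawley fetuses whose hippocampus and neocortex were collected together on embryonic day 18. There were 4 groups of 6 pups, and each group held 3 pups from each of 2 litters. The litter of a pup was taken from the number in its name (1.1 to 2.3), which no label explains, so all litter results rest on that reading. In the saline-treated controls the dam was injected with saline on gestational day 17. In the MAM group the dam received methylazoxymethanol acetate, a DNA-alkylating agent, at 22 mg/kg, and in the Poly I:C group a synthetic double-stranded RNA that mimics a viral infection, at 7.5 mg/kg, both by intraperitoneal injection on gestational day 17 and 18 hours before collection. In the Low Protein group the dam ate a diet of 6.1% protein, against 20.3% in the control diet, from gestational day 11 to 18. The dam and not the fetus was treated, so that 3 littermates share 1 treated animal and a p-value over 6 pups measures the spread between pups of only 2 dams. What diet the injected dams ate, and whether the Low Protein dams were injected, are not given in the sources used here.

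GABA-A receptors are chloride channels that are assembled from several subunits and opened by GABA. Most hold alpha, beta and gamma subunits, where the site for GABA lies between alpha and beta, and the alpha and gamma subunits shape drug sensitivity and placement in the membrane. In the fetal forebrain GABA mostly depolarises young neurons, because their chloride is high, and the receptors act on progenitor division, migration and maturation before they carry inhibition. The alpha2, alpha3 and alpha5 subunits are typical of immature forebrain.

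The genes lie in clusters of receptor genes. In the rat assembly GRCr8, Gabrb1, Gabra4, Gabra2 and Gabrg1 are neighbours on chromosome 14. Gabra5 lies in a cluster with Gabrg3 on chromosome 1, Gabrb2 in one with Gabra6 on chromosome 10, and Gabra3 between Gabre and Gabrq on chromosome X. RefSeq promoter sequence of GRCr8 was found for 6 of the 7 genes, all but Gabra2. The 250 bases before the start of 4 of them are printed 5′ to 3′ on the strand of the gene. The first pair are the beta genes, Gabrb1 at chr14:36902894-36903143 (minus strand) and Gabrb2 at chr10:27439543-27439792 (plus strand), shown because both hold the letters GCGCATGCGC, given in capitals. They form the self-complementary core of the longest run of letters that these windows share, and they are a binding motif of the nuclear respiratory factor NRF1.
Gabrb1: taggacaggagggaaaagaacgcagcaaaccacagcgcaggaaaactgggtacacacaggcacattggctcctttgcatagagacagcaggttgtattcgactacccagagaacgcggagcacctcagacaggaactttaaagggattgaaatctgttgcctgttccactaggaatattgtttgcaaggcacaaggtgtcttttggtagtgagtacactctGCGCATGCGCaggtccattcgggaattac
Gabrb2: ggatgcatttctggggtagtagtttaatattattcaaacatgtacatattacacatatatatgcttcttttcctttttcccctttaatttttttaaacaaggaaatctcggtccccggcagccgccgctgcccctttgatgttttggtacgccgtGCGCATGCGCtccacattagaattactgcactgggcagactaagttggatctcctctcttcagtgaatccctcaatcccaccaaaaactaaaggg
These letters occurred in 0.76% of 33469 RefSeq promoters of the same length. They were picked because both windows share them, so this share does not measure how unusual the pair is. The second pair, Gabra5 at chr1:117516607-117516856 (minus strand) and Gabrg1 at chr14:37750042-37750291 (plus strand), are shown because their levels moved together most closely from pup to pup, as described later. Capitals mark the GC box (GGGCGG, which reads CCGCCC on the printed strand) in Gabra5 and the CCAAT box, read as ATTGG on the printed strand, in Gabrg1.
Gabra5: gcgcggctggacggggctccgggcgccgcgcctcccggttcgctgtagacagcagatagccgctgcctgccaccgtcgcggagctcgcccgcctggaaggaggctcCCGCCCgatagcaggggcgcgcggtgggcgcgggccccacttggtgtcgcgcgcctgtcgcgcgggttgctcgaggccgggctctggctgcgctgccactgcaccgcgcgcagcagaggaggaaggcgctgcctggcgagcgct
Gabrg1: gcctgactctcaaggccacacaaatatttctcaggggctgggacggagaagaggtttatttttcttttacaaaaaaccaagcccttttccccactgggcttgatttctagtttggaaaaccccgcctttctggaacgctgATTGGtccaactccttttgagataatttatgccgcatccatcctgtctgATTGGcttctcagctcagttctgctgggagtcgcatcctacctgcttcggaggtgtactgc
A GC box was present in 30.47% of all promoters and a CCAAT box in 34.02%. The windows of Gabra3 and of Gabrb1, where it is not in capitals, also held a CCAAT box. The Gabra5 window was 76.4% G and C with 37 CG dinucleotides, and the Gabrg1 window 48.4% with 6. The median promoter was 51.2% G and C with 5 CG dinucleotides. Gabra4 resembled Gabra5 in this, with 71.6% and 33 CG dinucleotides, and also held a GC box. Gabra3 was at the other end with 40.4% and 0 CG dinucleotides, and it was the only one of the 6 with a TATA box (TATAAA, in 12.93% of promoters). Both strands were searched. Of the 6 windows, that of Gabra5 alone held an E-box (CANNTG, 65.54% of promoters). A match of letters is a description of the sequence and does not show that a factor binds there.

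Expression was given in TPM, a unit scaled to library size and gene length. The values of this table appear to be divided by the whole genomic span of a gene with its introns. This was inferred from the steps between low values and is not stated in the sources used here. A receptor gene with long introns would then have a small value. The values sum to 70350.1 in every pup, so a value is not a share of the usual TPM total. All levels named here are therefore taken to be per base of genomic span. The depth, estimated from the steps between low values, ranged from 25.0 to 64.87 M (megareads) per pup, with a median of 37.79 M. The mean estimated number of reads was 1277 for Gabra5, 1250 for Gabra2, 818 for Gabra3, 376 for Gabrb2, 294 for Gabra4, 223 for Gabrg1 and 70.8 for Gabrb1, and the lowest in any pup was 18.5, for Gabrb1. Markers of neurons and of cortical excitatory neurons were present in every pup, and so were those of choroid plexus, meninges, striatum and thalamus. Some pups stood apart in these markers. Saline pup 2.1 (litter 2, pup 1) had the highest sum of GABAergic-lineage markers in its group, 105.4 against a median of 65.32, and also the highest of striatal and thalamic markers. Poly I:C pup 2.2 had the highest sum in its group for intermediate progenitor, excitatory neuron, thalamic, choroid plexus, meningeal and endothelial markers.

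On this scale Gabra5 was the highest of the 7, at a mean of 0.229 TPM over all pups, followed by Gabra2 (0.188), Gabra4 (0.0774), Gabra3 (0.0686), Gabrg1 (0.0634), Gabrb2 (0.0351) and Gabrb1 (0.00307). The order was not equally firm along its length. Gabra5 was above Gabra2 in 21 of 24 pups, Gabra2 above Gabra4 in all 24, Gabra4 above Gabra3 in 19 and Gabra3 above Gabrg1 in 16. Gabrg1 was above Gabrb2, and Gabrb2 above Gabrb1, in all 24. Gabrb1, with the longest span of the 7, was the lowest by a wide margin, and Gabrb2 had a value 12.5 times higher in the median pup.

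**Figure D1:**
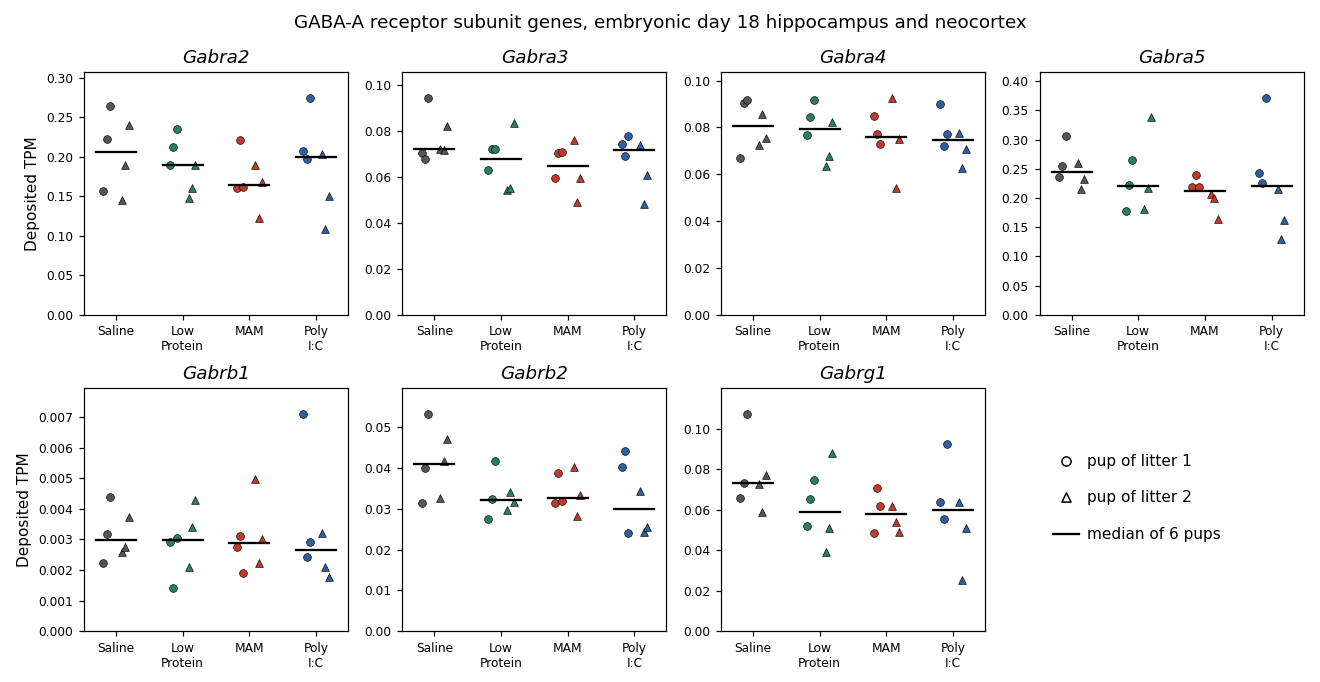
Deposited TPM of the 7 subunit genes (vertical axis, linear from 0) in each of the 24 pups, by group of 6. Circles are pups of litter 1 and triangles pups of litter 2, and the bar is the median of the group. The treated groups overlap with saline in every panel, and 1 Poly I:C pup at 0.0071 stands above the rest for Gabrb1.

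Every one of the 7 genes had its highest group mean of log2 values in saline, and every treated group lay below it. On the TPM scale this failed for Gabrb1, whose mean was 0.003255 in Poly I:C and 0.003143 in saline. None of the log2 differences passed the test over all genes. The differences were small, with log2 fold changes between -0.05 and -0.45, and the median of the 7 was -0.26 in MAM, -0.19 in Poly I:C and -0.18 in Low Protein. The median over all 13368 genes tested was -0.071, 0.0027 and -0.015. By sign alone, 70.6% of all genes were below saline in MAM, 49.3% in Poly I:C and 54.9% in Low Protein, against 7 of 7 subunit genes in each. Some cell type markers lay below saline too. Of 6 pan-neuronal markers, 5 were below saline in MAM, 4 in Poly I:C and 5 in Low Protein, and 0 had an unadjusted limma p under 0.05. Their summed level was 278.7 to 318.0 TPM in saline, 277.2 to 316.2 in MAM, 251.9 to 294.5 in Poly I:C and 256.5 to 310.0 in Low Protein. Most of this sum was Tubb3, with a median of 248.7 TPM over the 24 pups. Of 5 oligodendrocyte precursor markers, all 5 were below saline in each treatment, and 1, 1 and 2 of them, with Sox10 each time, had an unadjusted p under 0.05. Their sum was 15.59 to 29.35 TPM in saline, 14.2 to 20.65 in MAM, 12.46 to 22.55 in Poly I:C and 10.45 to 19.11 in Low Protein. Of 8 striatal neuron markers, 7 were below saline in MAM, 6 in Poly I:C and 7 in Low Protein, and all 7 GABAergic-lineage markers were below it in each. Of 5 choroid plexus markers, 5 were below saline in MAM, 3 in Poly I:C and 1 in Low Protein. Of 6 meningeal markers, 6, 4 and 3 were below it. Some other lists were mixed or lay mostly above saline. Of 7 excitatory neuron markers, 5 were above saline in MAM, 4 in Poly I:C and 4 in Low Protein. Of 6 microglia markers these numbers were 5, 4 and 5, and of 8 radial glia markers 3, 5 and 5. The part of any of these markers in the subunit values was not tested. The 3 comparisons share the same 6 saline pups, so a saline group that is high by chance lowers all 3 at once. In bulk RNA of hippocampus and neocortex, fewer cells that express a subunit and less RNA per cell cannot be told apart. In limma, 1 of the 21 differences, Gabrb2 in Poly I:C, had an unadjusted p under 0.05, and 0 had an adjusted p under 0.05. Among all genes the unadjusted limit was passed by 9.78% in MAM, 9.19% in Poly I:C and 7.08% in Low Protein, and the adjusted limit by 0.0150%, 0% and 0%. These calls depended on pooling the spread of all 4 groups. When limma used only the 12 pups of the 2 groups compared, 3 of 7 subunit genes passed the unadjusted limit in MAM, 0 in Poly I:C and 1 in Low Protein. Of the 13368 genes, 1751, 973 and 1195 passed it in that setting.

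**Figure D2:**
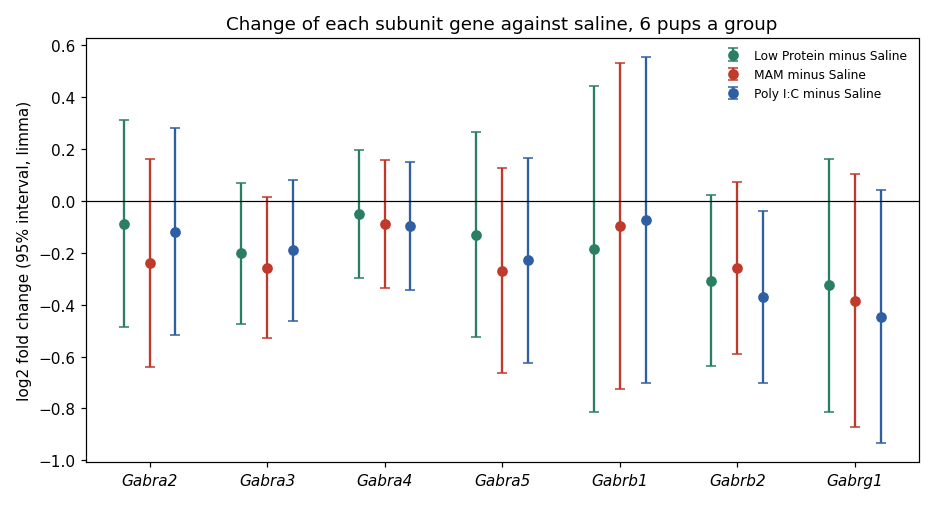
Log2 fold change of each subunit gene against saline (vertical axis) with its 95% interval from limma, for Low Protein, MAM and Poly I:C, 6 pups a group. All 21 points are below 0, and only the interval of Gabrb2 in Poly I:C, -0.70 to -0.041, does not reach 0.

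Of the alpha genes, Gabra5 encodes the subunit of extrasynaptic receptors that carry tonic inhibition in hippocampal pyramidal cells. Its lowest, median and highest saline values were 0.216, 0.245 and 0.306 TPM. They were 0.164, 0.212 and 0.240 in MAM, 0.130, 0.220 and 0.371 in Poly I:C, and 0.178, 0.220 and 0.339 in Low Protein. All 6 MAM pups were below the saline median, while Poly I:C held both the lowest and the highest pup of the 24. The log2 fold change was -0.27 in MAM (SE 0.19, limma adjusted p = 0.594), -0.23 in Poly I:C (adjusted p = 0.755) and -0.13 in Low Protein (adjusted p = 0.932). Without Low Protein pup 2.3 the last was -0.25. A two-sided exact permutation test of the MAM and saline pups alone gave p = 0.0216 unadjusted. The MAM pups of this gene varied by an SD of 0.18 on the log2 scale and the Poly I:C pups by 0.52, and limma pools the spread of all 4 groups.

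Gabra2 encodes a subunit of synaptic receptors, among them those on the axon initial segment. Its saline pups ran from 0.145 to 0.264 TPM with a median of 0.206. The range was 0.148 to 0.235 in Low Protein (median 0.189), 0.123 to 0.221 in MAM (median 0.165) and 0.109 to 0.274 in Poly I:C (median 0.200). The MAM group sat lowest, with 5 of its 6 pups under the saline median, and overlapped with saline over most of its range. The log2 fold changes were -0.24 in MAM (95% interval -0.64 to 0.16), -0.12 in Poly I:C (-0.52 to 0.28) and -0.09 in Low Protein (-0.49 to 0.31). All 3 intervals include 0, which does not show that the groups are alike.

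Gabra3, an alpha subunit that is prominent in the embryonic cortex, had a tight saline group of 0.0675 to 0.0942 TPM (median 0.0719). Low Protein pups ran from 0.0544 to 0.0834 (median 0.0676), MAM pups from 0.0490 to 0.0760 (median 0.0648) and Poly I:C pups from 0.0482 to 0.0776 (median 0.0715). There were 3 MAM pups below the lowest saline pup, 3 Low Protein pups and 2 Poly I:C pups. The log2 fold change was -0.26 in MAM (SE 0.13, limma adjusted p = 0.526, exact permutation p = 0.0584), -0.20 in Low Protein (adjusted p = 0.772) and -0.19 in Poly I:C (adjusted p = 0.691).

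Gabra4, whose subunit joins the delta subunit in extrasynaptic receptors of the mature hippocampus and thalamus, varied least between groups among the alpha genes. Its medians were 0.0805 TPM in saline (0.0671 to 0.0917), 0.0796 in Low Protein (0.0635 to 0.0918), 0.0761 in MAM (0.0541 to 0.0926) and 0.0748 in Poly I:C (0.0626 to 0.0901). The 4 ranges lay almost on top of each other. The log2 fold changes were -0.09 in MAM, -0.10 in Poly I:C and -0.05 in Low Protein, with 95% intervals of -0.34 to 0.16, -0.34 to 0.15 and -0.30 to 0.20. These are the narrowest intervals of the 7 genes, and a log2 difference of -0.37, the size found for Gabrb2 in Poly I:C, lies outside each of them.

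Of the beta genes, Gabrb2 encodes a beta subunit that is abundant in synaptic receptors of the adult brain. It ran from 0.0314 to 0.0533 TPM in saline (median 0.0410), from 0.0276 to 0.0417 in Low Protein (median 0.0321), from 0.0283 to 0.0402 in MAM (median 0.0327) and from 0.0242 to 0.0443 in Poly I:C (median 0.0300). All 6 MAM pups were below the saline median, as were 5 of 6 Low Protein pups and 5 of 6 Poly I:C pups, and 3 Poly I:C pups were below the lowest saline pup. The log2 fold change was -0.37 in Poly I:C (SE 0.16, 0.774 times saline). Its unadjusted limma p was 0.0294, rank 812 of 13368 genes, and its adjusted p was 0.484. The exact permutation test of this difference gave p = 0.104. In Low Protein the log2 fold change was -0.31 (limma adjusted p = 0.715, exact permutation p = 0.0693) and in MAM -0.26 (adjusted p = 0.558). Group membership took 23.1% of the sum of squares of Gabrb2, the largest share of the 7 genes, and 14.9% in the median gene of the table. The limma F test over the 4 groups gave an adjusted p of 0.516 for it, the lowest of the 7, while 12.3% of all genes had an unadjusted F test p under 0.05.

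Gabrb1, the beta gene with the fewest reads, was the most variable. Its saline pups lay between 0.00223 and 0.00439 TPM (median 0.00297), Low Protein between 0.00141 and 0.00431 (median 0.00298), MAM between 0.0019 and 0.00499 (median 0.00289) and Poly I:C between 0.00178 and 0.0071 (median 0.00267). The medians of the 4 groups were nearly level, and the highest pup of Poly I:C was above every other pup. The log2 fold changes were -0.10 in MAM, -0.07 in Poly I:C and -0.18 in Low Protein with an SE of 0.30 each. The log2 difference of -0.37 found for Gabrb2 in Poly I:C lies inside all 3 of the 95% intervals of Gabrb1. A difference of that size is therefore not excluded in Gabrb1, and the same holds for every other subunit gene but Gabra4.

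Gabrg1 encodes a gamma subunit that is found in a limited set of brain regions and in glia. It showed the largest differences of the 7. Saline pups ran from 0.0587 to 0.107 TPM (median 0.0730), Low Protein from 0.0389 to 0.0882 (median 0.0586), MAM from 0.0485 to 0.0705 (median 0.0578) and Poly I:C from 0.0251 to 0.0925 (median 0.0596). All 6 MAM pups were below the saline median, and in each treated group 3 pups were below the lowest saline pup. The log2 fold change was -0.45 in Poly I:C (0.734 times saline, 95% interval -0.93 to 0.041, limma adjusted p = 0.574). It was -0.38 in MAM (0.766 times, adjusted p = 0.556) and -0.33 in Low Protein (0.798 times, adjusted p = 0.798). Without Low Protein pup 2.1 the Low Protein value was -0.20. The exact permutation test of MAM against saline gave p = 0.0238 unadjusted.

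Among the 21 exact permutation tests of a subunit gene against saline, the 2 of Gabra5 and Gabrg1 in MAM were the only ones with an unadjusted p under 0.05, and the smallest p that all splits of 6 against 6 pups allow is 0.00216. In 0 of 21 comparisons did the treated pups lie apart from the saline pups without overlap, against 0.875% of all genes in MAM, 0.434% in Poly I:C and 0.673% in Low Protein. Between treated groups the genes were closer to each other. In 21 exact permutation tests between pairs of treatments the lowest p was 0.359. The lowest treated mean of log2 values belonged to MAM for Gabra2, Gabra3 and Gabra5, and to Poly I:C for Gabra4, Gabrb2 and Gabrg1. For Gabrb1 it belonged to Low Protein. None of these orders was larger than the spread between pups. For Gabrg1, MAM exceeded Poly I:C by a log2 difference of 0.06, with a 95% interval of -0.43 to 0.55.

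The litters of a group differed most in Poly I:C. There, litter 1 was above litter 2 for all 7 genes, by 0.18 to 0.72 on the log2 scale (median 0.58). The gap was 0.72 for Gabra5, 0.69 for Gabrb1, 0.67 for Gabrg1 and 0.58 for Gabra2. In saline litter 1 was also above litter 2 for all 7, by only 0.018 to 0.22 (median 0.082). It was higher for 5 of 7 in Low Protein and 6 of 7 in MAM. Relative to the saline mean, litter 1 of Poly I:C was at 0.13 for Gabra5 and 0.17 for Gabra2, while litter 2 was at -0.59 and -0.41. Gabrb2 was below saline in both Poly I:C litters, at -0.20 and -0.54, and Gabrg1 at -0.11 and -0.78. Both litters of a treatment were below both saline litters for 5 of 7 genes in MAM, 3 in Poly I:C and 3 in Low Protein, against 40.7%, 17.3% and 22.9% of all genes. In all 3 treatments at once, with the same saline litters, this held for Gabra3, Gabrb2 and Gabrg1 and for 7.20% of all genes. For Gabrg1 it was narrow, since litter 1 of Poly I:C was at -0.1105 and litter 2 of saline at -0.1078 relative to the saline mean. With 2 litters a group no exact test of litter means can reach 0.05, so these are descriptions. Litters within groups took from 8.6% of the sum of squares (Gabrb2) to 36.6% (Gabra5), and 16.4% in the median gene, whereas pups within litters took 53.2% to 78.7%. Only Gabra5 and Gabra2 (31.4%) were well above the median gene in this, and the consensus correlation within litters over all genes was 0.007.

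**Figure D3:**
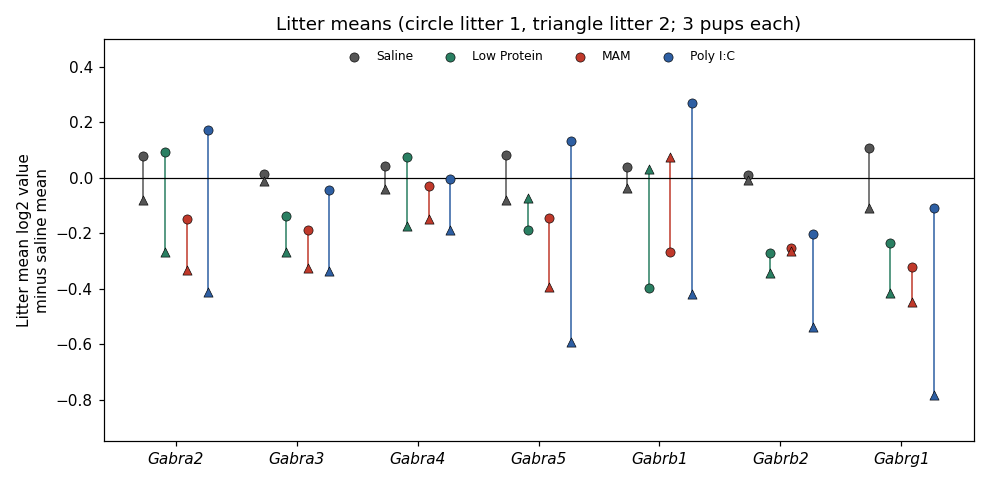
Mean log2 value of each litter of 3 pups minus the saline mean (vertical axis) for the 7 subunit genes, with circles for litter 1, triangles for litter 2 and a line joining the 2 litters of a group. The Poly I:C litters are far apart, at 0.13 and -0.59 for Gabra5, while both litters of every treatment are below both saline litters for Gabra3, Gabrb2 and, by a narrow margin, Gabrg1, as in 7.20% of all genes.

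The Poly I:C values thus depended on the litter. Without litter 1 of Poly I:C the log2 fold change was -0.59 for Gabra5, -0.54 for Gabrb2, -0.78 for Gabrg1 and -0.41 for Gabra2, with limma adjusted p of 0.0942, 0.0914, 0.118 and 0.336. Without litter 2, it was 0.13 for Gabra5, 0.17 for Gabra2 and 0.27 for Gabrb1, and -0.20 for Gabrb2 and -0.11 for Gabrg1. Removing litter 2 left 4 of 7 genes below saline. Among single pups, Poly I:C pup 2.2 was the lowest of all 24 in 4 genes and among the lowest 3 in 6, at a mean of -0.81 relative to saline. Without it, 5 of 7 genes were below saline in Poly I:C and their median was -0.087, and Gabrb2 was at -0.30. This pup also had an intermediate progenitor marker sum of 18.17 TPM, against a Poly I:C median of 14.57 and a saline range of 10.86 to 14.48. Only 2 of the 5 listed progenitor markers are in the table. Most of their sum was Btg2, with a median of 10.85 TPM over the 24 pups against 1.788 for Neurog1. Neurog1 was higher in Poly I:C by 0.71 (log2, limma unadjusted p = 0.00839, adjusted p = 0.399). The part of this in the subunit values was not tested.

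At the other end, saline pup 1.3 was the highest of the 24 in 3 genes and among the highest 3 in all 7, at a mean of 0.38 above the saline mean. Without this pup, 6 of 7 genes were below saline in MAM, 6 of 7 in Poly I:C and 7 of 7 in Low Protein. The medians were then -0.18, -0.13 and -0.080. Without saline pup 2.1, which stood apart in its GABAergic-lineage markers, 7 of 7 genes were below saline in each treatment, with medians of -0.27 in MAM, -0.21 in Poly I:C and -0.22 in Low Protein. In that case Gabrb2 was at -0.32, -0.43 and -0.37.

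**Figure D4:**
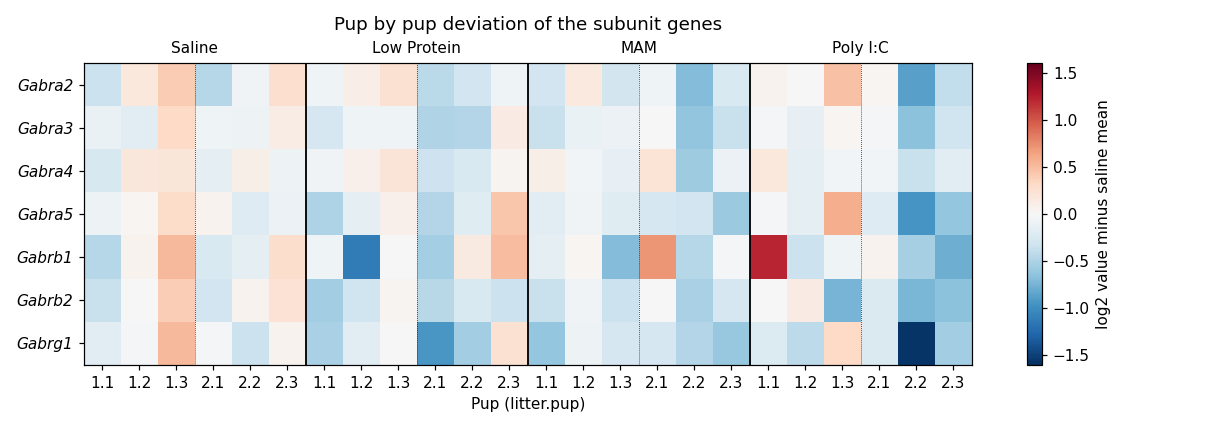
Log2 value minus the saline mean (colour, blue below and red above) for the 7 subunit genes in rows and the 24 pups in columns, with dotted lines between litters. Columns tend to have 1 colour, as in Poly I:C pup 2.2 (mean -0.81) and saline pup 1.3 (mean 0.38).

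The 7 genes varied together from pup to pup within groups. In 5 pups all 7 were above the mean of their group and in 5 pups all 7 were below it. After the group means were subtracted, all 21 pairs of genes had a positive Pearson correlation over the 24 pups, from 0.263 for Gabra5 and Gabrb2 to 0.897 for Gabra5 and Gabrg1, with a median of 0.554. The genes of a pup share 1 library, 1 scaling and 1 dissection, and littermates share a dam, so these values describe the pups and carry no test. Gabra2, Gabra3, Gabra5 and Gabrg1 formed the closest set, with pairs from 0.672 to 0.897. Gabrb1 and Gabrb2, whose promoters share the NRF1 letters, correlated at 0.554, no more than the median pair. Among the 4 genes of the chromosome 14 cluster the pairs ran from 0.41 for Gabrb1 and Gabrg1 to 0.799 for Gabra2 and Gabrg1. The closest pair, Gabra5 and Gabrg1, lie on different chromosomes and had unlike promoter composition.

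**Figure D5:**
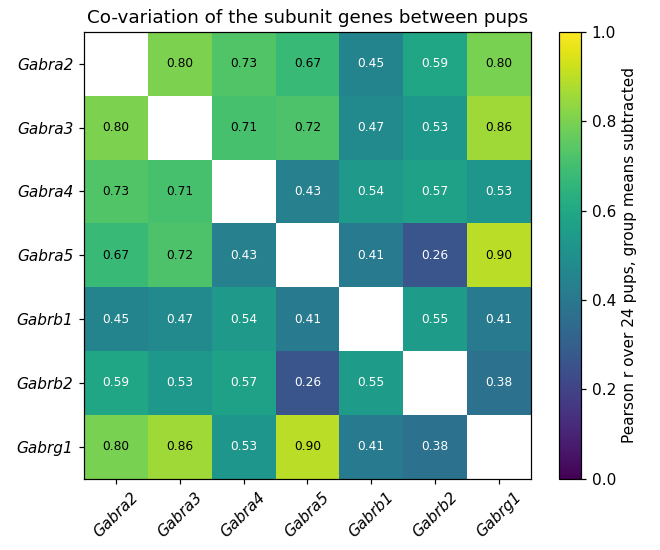
Pearson correlation of the log2 values of each pair of subunit genes over 24 pups after subtracting group means, as colour and number. All pairs are positive, and Gabra5 with Gabrg1 (0.897) and Gabra3 with Gabrg1 (0.856) are the closest.

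For each gene, the genes of the table that followed it most closely over the 24 pups were found by the same measure. Gabra5 was followed by MGC109340 (0.963), Atp1b1 (0.952), a beta subunit of the sodium pump, and Vsnl1 (0.946), a neuronal calcium sensor. Gabrg1 was followed by Rgs4 (0.949), a regulator of G protein signalling, Zdhhc2 (0.946) and Cd200 (0.94), and Gabra2 by Lrfn5 (0.925), Syt4 (0.919) and Kifap3 (0.919). Gabra3 was followed by Amz2 (0.872) and Atp6ap1 (0.863). Gabrb2 was nearest to Zfp597 (0.907), St8sia3 (0.903) and Opa1 (0.894), a mitochondrial fusion gene. Weaker likeness was found for Gabra4, with Dfna5 (0.844), Trappc11 (0.825) and Camsap2 (0.825), and for Gabrb1, with Usp31 (0.791), Ubxn2b (0.785) and Epm2a (0.778). For comparison, 5% of all genes correlated with Gabra5 above 0.641 and with Gabrb1 above 0.506.

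The markers of cell types followed the 7 genes to unlike degrees, without a clear break between genes. The mean of 6 pan-neuronal markers correlated with all 7 genes, from 0.50 for Gabra5 to 0.77 for Gabrb2, over the 24 pups with group means subtracted. The 2 intermediate progenitor markers went against Gabra5 (-0.84), Gabrg1 (-0.71) and Gabra3 (-0.58). They were at -0.36 for Gabra2, -0.34 for Gabrb1 and -0.13 for Gabrb2 and for Gabra4. The 8 radial glia markers were at -0.61 for Gabra5, -0.57 for Gabrg1 and -0.05 for Gabrb2. The 7 excitatory neuron markers were at -0.50 for Gabra5 and 0.31 for Gabrb2. This order was not particular to neural lists. Choroid plexus markers were at -0.52 for Gabra5, -0.47 for Gabrg1 and 0.17 for Gabrb2, and endothelial markers at -0.51, -0.51 and -0.07. Oligodendrocyte precursor markers went the other way, at 0.45, 0.33 and 0.25. Estimated depth was unrelated, between -0.14 and 0.15. These correlations share the libraries and dissections and are descriptions.

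Other subunit genes were examined beside the 7. Gabra6, the cerebellar granule cell subunit, and Gabrp were above the lowest value in only 12 and 2 of the 24 pups and were not tested. Of the 10 that were tested, 8 were below saline by sign in MAM, 8 in Poly I:C and 9 in Low Protein. Their median log2 fold changes were -0.22, -0.15 and -0.18, so a shift below saline was not particular to the 7. At an unadjusted limma p under 0.05, 1 was lower in MAM, 1 in Poly I:C and 0 in Low Protein, and 0 were higher. In Poly I:C this was Gabrd, the delta subunit of extrasynaptic receptors. The share of all genes lower at this limit was 7.65% in MAM, 5.35% in Poly I:C and 4.43% in Low Protein, and the share higher was 2.14%, 3.85% and 2.66%.

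Gabrd had lowest, median and highest values of 0.0642, 0.0845 and 0.0978 TPM in saline, and 0.0309, 0.0546 and 0.0766 in Poly I:C. Of the Poly I:C pups, 6 of 6 were below the saline median and 5 below the lowest saline pup. Its log2 fold change in Poly I:C was -0.72 (SE 0.24, limma unadjusted p = 0.00560, adjusted p = 0.371; exact permutation p = 0.00433). It rested on a mean of only 42.7 estimated reads per pup. Gabra4, which joins Gabrd in receptors, was at -0.10 in the same comparison.

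Some genes around the receptor were lower at the unadjusted limit, and none of the 3 lists held a higher one. Of 10 genes of GABA synthesis, uptake and chloride transport, 2 were lower in MAM and 5 in Low Protein. In Low Protein these were Gad1 at -0.47 and Gad2 at -0.39, which make GABA, Slc32a1 at -0.41, which loads it into vesicles, Aldh5a1 at -0.30, which degrades its product, and Slc12a5 at -0.50, the chloride exporter KCC2. Gad1 (-0.43) and Aldh5a1 (-0.38) were lower in MAM. Of 23 clustering and trafficking genes tested, 4 were lower in Low Protein (Nlgn2, Nsf, Plcl2 and Iqsec3), 3 in MAM (Plcl2, Clptm1 and Rdx) and 1 in Poly I:C (Kif5a). Gphn, which encodes the scaffold gephyrin, was not among them. Of the metabotropic GABA-B genes, Gabbr1 was lower in MAM (-0.19), and Gabbr2 in Low Protein (-0.27) and Poly I:C (-0.30). None of these had a limma adjusted p under 0.05. Beside these values, the sum of 7 GABAergic-lineage markers had a median of 65.32 TPM in saline (50.82 to 105.4), 55.61 in MAM (47.44 to 65.18), 62.12 in Poly I:C (51.29 to 74.78) and 54.29 in Low Protein (43.54 to 63.33), and 7 of 7 were below saline by sign in each treatment. The mean log2 value of these 7 markers, with group means subtracted, had correlations between -0.15 and 0.20 with the 7 receptor genes. The part of this lineage in the subunit values was not tested.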

How the data were processed

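RNA of 24 pups was sequenced by the authors on an Illumina HiSeq 2500 from stranded mRNA libraries. Reads were trimmed by quality, aligned to rn6 with STAR (version 2.4.1d) and assigned to RefSeq transcripts by Partek's E/M method. The deposited values are TPM with an offset of 0.0001, which 20.9% of values equal. Their steps, multiplied by genomic span (GRCr8, 97.6% of genes matched), gave the estimated reads. Per pup, 46.5 to 54.1% of low values lay within 0.05 of a whole read. A step fixed in advance would give 10% by chance. The step of each pup was fitted to these same low values, so 10% is not the chance level for it. The estimated reads are approximate and were not tested as counts.

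Genes above the offset in at least 18 pups (13368) were compared on log2 TPM by limma (version 3.58.1, R 4.3.3, lmFit and eBayes), with all 24 pups and the group as factor, and Benjamini-Hochberg adjustment over all genes tested. Single values were compared by two-sided exact permutation tests (scipy 1.17.1), which were not adjusted. The study's own limit, a mean above 1 in every group, keeps 0 of the 7 genes. The litter of a pup was assumed to be the first digit of its number, which the labels do not explain. The fit was tested on simulated data. Alternatives covered filters, scaling, pseudocount, spread, litters and leaving out each pup and litter. Named genes were the 7 subunits, genes of the listed pathways with an unadjusted p under 0.05, and the 3 closest correlates of each subunit, of which some genes are not reported here. The genes and lists were chosen with earlier results of these data known.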

Additional observations from a re-analysis of the deposited data

Results flagged for a closer look

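Of the 28 sets of 6 pups formed by 7 genes and 4 groups, each examined on the TPM and on the log2 scale, 1 held a pup far from the others. Gabrb1 was at 0.0071 TPM in Poly I:C pup 1.1 and at 0.00319 in the next highest pup of the group. The gap was 0.735 of the whole range, above Dixon's 95% critical value for 6 pups. On the log2 scale, which the tests used, it was 0.578 of the range and below that value. Chance alone gives such a gap in about 1 of 20 sets.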

How the results depend on the processing

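Each of the 21 log2 fold changes was recomputed under 42 other settings. Of these 882 values, 865 kept their sign, 17 changed it, and none reached an adjusted p under 0.05 (lowest 0.0914). Of the 17, 16 came from leaving out a pup or a litter. Over these omissions Gabrb1 ranged from -0.40 to 0.031 in Low Protein, -0.27 to 0.074 in MAM and -0.42 to 0.27 in Poly I:C, Gabra4 from -0.18 to 0.074 in Low Protein and -0.15 to 0.0056 in MAM, Gabra2 from -0.27 to 0.093 in Low Protein and -0.41 to 0.17 in Poly I:C, and Gabra5 from -0.59 to 0.13 in Poly I:C. With 0.1 added before the log, Gabrb1 in Poly I:C was at 0.0014, since 0.1 is far above its values. The same addition shrank the other genes, such as Gabrb2 to -0.073 in MAM, -0.094 in Poly I:C and -0.085 in Low Protein. Gabra3, Gabrb2 and Gabrg1 stayed below saline in every setting run, and no scaling changed a sign.

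The number of genes with an unadjusted p under 0.05, against which the 7 are read, moved more. It was 1308 in MAM, 1229 in Poly I:C, 947 in Low Protein and 1650 over the 4 groups. Under the study's own limit, with fewer genes tested, it was 572, 506, 419 and 835. On litter means it was 690 in MAM, 776 in Poly I:C and 706 over the 4 groups. Leaving out a pup or litter gave 562 (without saline litter 2) to 1201 in Low Protein, and 468 (without saline litter 1) to 1802 in MAM. In MAM it was 824 without MAM pup 2.2, 737 without saline pup 1.3, and 758 and 657 without MAM litter 1 and 2. It gave 632 (without litter 2) to 2388 (without litter 1) in Poly I:C, with 687 without saline litter 2, and 940 (without MAM litter 1) to 2065 over the 4 groups, with 1044 without MAM litter 2. The cause was not tested.

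Same-numbered pups of different groups share a number, and whether they share more is not given in the sources used here and was not tested. The mean correlation of their deviations was between -0.021 and 0.079, and 7 of 24 pups were nearest to their own number. With the number as a replicate block, 1615 genes had an unadjusted p under 0.05 in MAM, 1430 in Poly I:C and 1184 in Low Protein, and 2049 over the 4 groups. Without the block these counts were lower, at 1308, 1229, 947 and 1650.

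At the depth of these libraries Gabrb1 and Gabrd rest on the fewest reads of the subunit genes described by value, and small differences in Gabrb1 are not detectable.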
